A study of Gallus gallus with 10 samples.

Results

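Control morpholino cranial neural folds of chick embryos were described from 5 RNA-seq libraries, chosen as every library that the labels assign to the control morpholino, of 10 libraries in all. Each library is called a pool here, because its RNA came from the folds of 12 embryos, with 60 embryos in the condition. Bilateral electroporation at stage 4 to 5 of the Hamburger-Hamilton series had delivered 0.5 mM control morpholino, an antisense oligomer, together with 300 ng/µL of pCS2+myc plasmid as carrier DNA. The embryos were grown at 39 °C and their cranial folds were cut out at 5 to 7 somites. The other 5 libraries carried an NSD3 morpholino and the same carrier, and no comparison with them was made. The tissue is therefore a baseline of injected and pooled embryos, and untreated folds were not analysed here.

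Neural folds are the rims of the neural plate as it rolls up into the neural tube. They hold future brain on one side, surface ectoderm on the other, and between them the neural plate border, from which neural crest cells arise. WNT, BMP and FGF signals set up the border through transcription factors such as PAX7, MSX1, TFAP2A and the ZIC genes. Factors such as FOXD3, SNAI2, SOX9, SOX10 and ETS1 then specify the crest, which later leaves the folds and forms much of the face and the cranial nerves.

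Levels are given in FPKM, sequenced fragments per transcript length and library size, as the authors deposited them, so that genes of different length can be compared. Means are followed by the SD over the 5 pools (n = 5 throughout), and with a single group no test between groups applies. A row counts as expressed here at a mean of at least 1 FPKM. Of 19168 rows, 11969 were expressed (62.4%), 645 reached 100 FPKM and 47 reached 1000 FPKM, while 808 were listed at 0 in all 5 pools. The median row stood at 3.50 FPKM. Relative depth lay between 0.966 and 1.04 in the 5 pools. For the median expressed gene, 26.7 fragments per pool stood behind 1 FPKM, so that levels under 1 FPKM rest on few fragments. Across 8663 genes with a mean of at least 5 FPKM, log2 levels of the pools correlated with r between 0.941 and 0.988, as a description across genes, which are not independent replicates. Pools 1, 2 and 3 resembled each other (r from 0.980 to 0.988), and so did pools 4 and 5 (0.986), while pairs across those lay between 0.941 and 0.968. The labels name no batch, and the main results that rest on pools 4 and 5 are also given without them.

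**Figure D1:**
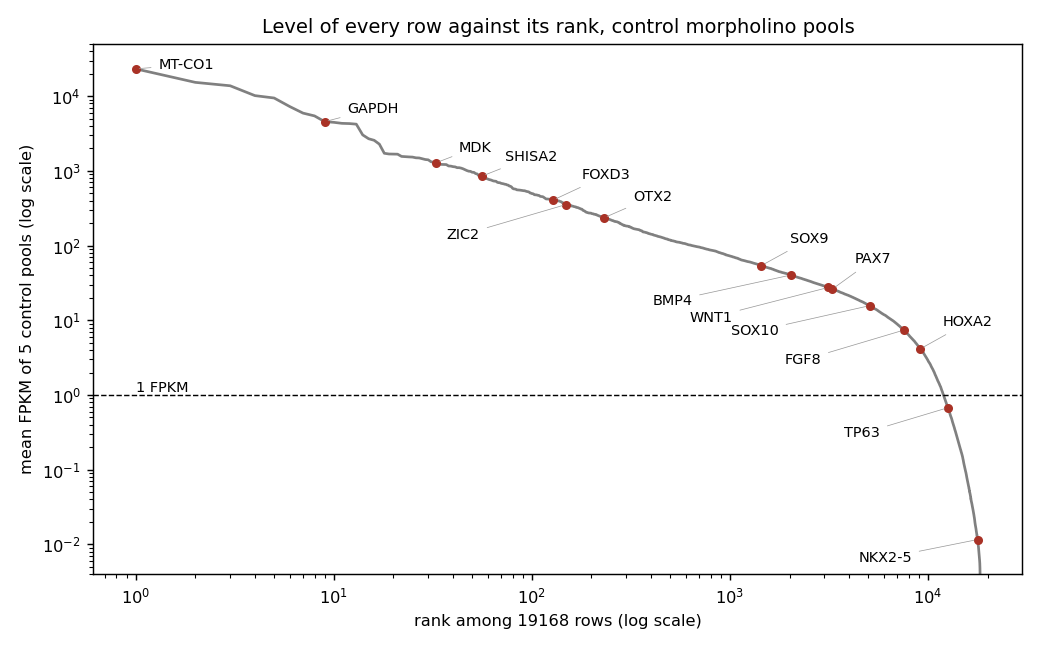
Mean level of every row above 0 in the control pools (vertical axis, FPKM, log scale) against its rank (horizontal axis, log scale), with 16 genes marked and a dashed line at 1 FPKM. The marked genes run from MT-CO1 at 23234 FPKM to the heart factor NKX2-5 at 0.0116 FPKM.

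Marker lists were used to describe the tissue. They were chosen with earlier results of these data known, so they do not test its identity. Most border, crest and neural genes were expressed. Of the members with a row, 17 of 18 border factors, 23 of 27 crest specification factors and 38 of 42 neural tube and brain region factors were expressed, against 62.4% of all rows. Markers of other tissues were expressed in smaller shares than these. Non-neural ectoderm and placode (66.7%, median 11.2 FPKM) and neurons (60%, median 3.70 FPKM) lay near the share of all rows. The other lists lay below that share, with medians under 1 FPKM. Expressed members were 14 of 21 for non-neural ectoderm and placode, 9 of 19 for head mesoderm and mesenchyme, 4 of 16 for heart and muscle and 5 of 11 for notochord and floor plate. For endoderm and yolk sac 2 of 14 were expressed, for blood 2 of 9, for endothelium 5 of 14, for neurons 9 of 15 and for germ cells 1 of 5. In such mixed tissue, fewer cells of a type and less RNA per cell cannot be told apart. Lists not tied to a tissue also had high shares, with 96.6% for cell cycle and 90.6% for matrix genes. A high share alone therefore does not mark a tissue, and all rows include 4914 without a symbol.

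Within the non-neural ectoderm and placode list, epithelial genes were high and several regulators were low. CLDN1, a tight junction protein, averaged 1530 ± 165 FPKM, and EPCAM, an epithelial adhesion molecule, 219 ± 32.0 FPKM. KRT24, a keratin, averaged 95.6 ± 6.07 FPKM. The epidermal regulators GATA3 and TP63 averaged 1.03 ± 0.345 and 0.676 ± 0.128 FPKM. GRHL3 averaged 0.723 ± 0.157 FPKM, TBX3 0.0282 ± 0.0297 FPKM and TBX2 0.0204 ± 0.0186 FPKM. SOX13, a factor of the same list, averaged 60.95 ± 25.9 FPKM, or 46.1 FPKM without pools 4 and 5. Which cells of this bulk tissue carried the epithelial genes was not tested.

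Within the lists of deeper tissues and of neurons, members differed widely in level. TBXT, the notochord factor brachyury, averaged 1.07 ± 0.234 FPKM, FOXA2 0.757 ± 0.512 FPKM, and SHH, the notochord signal, 0.0334 ± 0.0497 FPKM, against 24.1 ± 3.30 FPKM for the homeobox gene NOTO. The troponins TNNC1 and TNNI1 averaged 29.7 ± 2.13 and 18.7 ± 2.33 FPKM, cardiac troponin TNNT2 0.490 ± 0.179 FPKM and the heart factor NKX2-5 was above 0 in 1 pool. APOA1, a lipoprotein gene, averaged 38.1 ± 5.16 FPKM, with APOB and TTR listed at 0 in every pool. HBA1 and HBBA were listed at 0 and the embryonic globin HBE averaged 3.17 ± 0.570 FPKM. PECAM1 averaged 8.47 ± 3.08 FPKM, while the endothelial cadherin CDH5 averaged 0.122 ± 0.121 FPKM. TUBB3, a tubulin used as a neuronal marker, was at 355 ± 68.2 FPKM. Of the other neuronal genes, the sensory neuron factor POU4F3 averaged 37.7 ± 5.71 FPKM, DCX, a microtubule protein of young neurons, 17.5 ± 3.47 FPKM, and the neurofilament genes NEFL and NEFM 12.2 ± 2.15 and 12.0 ± 2.84 FPKM. PRDM12, a factor of sensory neurons, averaged 6.45 ± 2.24 FPKM, ELAVL4 3.70 ± 0.443 FPKM and NEUROD1 0.139 ± 0.0880 FPKM.

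The most abundant transcripts were those of the mitochondrial genome. The 13 mitochondrial protein genes took 20.9 ± 1.80% of all FPKM, and 12 of them stood among the 20 highest rows. MT-CO1, which encodes cytochrome oxidase subunit 1 and is listed as ENSGALG00000032142, led with 23234 ± 1471 FPKM. Cytochrome oxidase subunits COX3 and COII followed at 15314 ± 1343 and 13788 ± 1169 FPKM, and the ATP synthase subunit ATP6 at 10179 ± 748 FPKM. The mitochondrial share was 21.2, 23.5, 21.0, 20.1 and 18.6% in pools 1 to 5. Pool 2 was highest and pool 5 lowest in this share, which bears on every gene, because FPKM are scaled within a library.

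The highest nuclear genes were in wide use across tissues. GAPDH, a glycolytic enzyme, averaged 4563 ± 721 FPKM, the actin ACTB 4469 ± 380 FPKM and the translation elongation factor EEF1A1 4300 ± 231 FPKM. EEF1A1 lay between 4144 and 4240 FPKM in pools 1 to 4 and at 4709 FPKM in pool 5. ACTG1, RPS2, FAU, RPSAP58 and RPLP1 completed the 20 highest named genes at 2567 to 1680 FPKM. ACTB and ACTG1 are close copies of each other and RPSAP58 carries the name of a ribosomal protein copy, so that reads could be divided between copies. The 20 highest rows took 25.2 ± 1.36% and the 100 highest 39.1 ± 0.915% of all FPKM. Developmental genes also reached this range. MDK, the secreted growth factor midkine, averaged 1291 ± 98.8 FPKM at rank 33, and SHISA2, whose relative in frog retains WNT and FGF receptors inside the cell, 851 ± 77.0 FPKM at rank 56.

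Among the border factors, ZIC2 and MSX1 stood far above the rest. ZIC2, a zinc finger factor listed as ENSGALG00000041083, was at 310, 300, 302, 402 and 460 FPKM in pools 1 to 5, a mean of 355 ± 73.0 FPKM. MSX1, a homeobox factor downstream of BMP signals, was at 253, 264, 255, 456 and 472 FPKM, a mean of 340 ± 114 FPKM. Pools 4 and 5 were high for both, and ZIC2 exceeded MSX1 only in pools 1, 2 and 3, so the order of these genes was not set. Without pools 4 and 5, ZIC2 averaged 304 FPKM with a CV of 1.80% and MSX1 257 FPKM with a CV of 2.34%. TFAP2A, which acts in border, crest and surface ectoderm, came next at 97.8, 112, 108, 119 and 127 FPKM, with pool 1 lowest and pool 5 highest.

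PAX7, a factor widely used to mark the border in chick, was much lower in level and almost the same in each pool. It was at 26.0, 25.7, 25.4, 27.1 and 26.9 FPKM, a coefficient of variation (CV, the SD over the mean) of 2.77%. Its relative PAX3 was at 10.4, 9.69, 7.66, 14.98 and 21.4 FPKM, a CV of 42.7%, with pools 4 and 5 highest, and without them it averaged 9.24 FPKM with a CV of 15.2%. Other border factors ran from DLX5, a homeobox factor of the outer border, at 61.7 ± 14.0 FPKM through GBX2 (25.8 ± 5.32 FPKM), PRDM1 (20.6 ± 7.51 FPKM), TFAP2C (20.3 ± 4.31 FPKM), IRX1 (18.8 ± 4.05 FPKM), ZIC1 (17.9 ± 2.19 FPKM), DLX6 (16.5 ± 3.44 FPKM) and MSX2 (16.1 ± 4.41 FPKM) down to GATA2 (6.83 ± 3.18 FPKM) and DLX3 (6.27 ± 0.887 FPKM). From GBX2 to MSX2, each gene's range overlapped that of its neighbour. ZIC4, at 0.118 ± 0.0950 FPKM, was the single border factor not expressed.

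Crest specification factors spanned a wide range of levels. ID2, an inhibitor of helix-loop-helix factors, led at 427 ± 32.7 FPKM. FOXD3, a forkhead factor that keeps crest cells multipotent and is listed as ENSGALG00000042686, was at 347, 332, 291, 332 and 731 FPKM in pools 1 to 5. SNAI2, a repressor of epithelial genes, was at 261, 334, 233, 212 and 300 FPKM. FOXD3 was high in pool 5 alone, and SNAI2 was not, with pool 2 its highest.

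Below these came ID1 (150 ± 34.6 FPKM), ID3 (129 ± 47.9 FPKM), the proliferation factor MYCN (97.1 ± 18.8 FPKM) and CSRNP1 (71.6 ± 12.4 FPKM), a WNT effector in chick crest, with LMO4 (71.3 ± 10.3 FPKM), a LIM-domain partner of other factors. TFAP2B, an AP-2 factor of the crest, was at 56.3, 58.5, 53.0, 56.4 and 81.9 FPKM, again high in pool 5 alone. SOX9, which starts the SOXE programme of the crest, was at 47.6, 62.7, 36.9, 58.1 and 65.3 FPKM. The pools did not separate for SOX9, with pool 3 lowest.

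Later and migratory crest factors were lower. ETS1, a factor of the cranial crest, was at 15.5, 11.5, 12.7, 15.3 and 28.4 FPKM, and SOX10, listed as ENSGALG00000012290, at 14.8, 9.22, 8.64, 13.5 and 32.2 FPKM. In both, pool 5 lay above the other 4 pools. SOX8 averaged 15.7 ± 4.22 FPKM, so that its level and that of SOX10 did not differ beyond their spread, while SOX9 exceeded both in every pool. SNAI1 averaged 3.02 ± 0.625 FPKM, the EMT repressors ZEB2 and ZEB1 33.9 ± 4.34 and 2.69 ± 0.612 FPKM, SOX5 5.20 ± 2.35 FPKM and MYB 1.84 ± 0.234 FPKM. TWIST1 (0.759 ± 0.193 FPKM), NR2F1 (0.669 ± 0.160 FPKM), EBF1 (0.427 ± 0.271 FPKM) and SOX6 (0.0210 ± 0.0192 FPKM) were not expressed by the 1 FPKM rule. TWIST1 in chick is mainly a gene of mesenchyme.

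**Figure D2:**
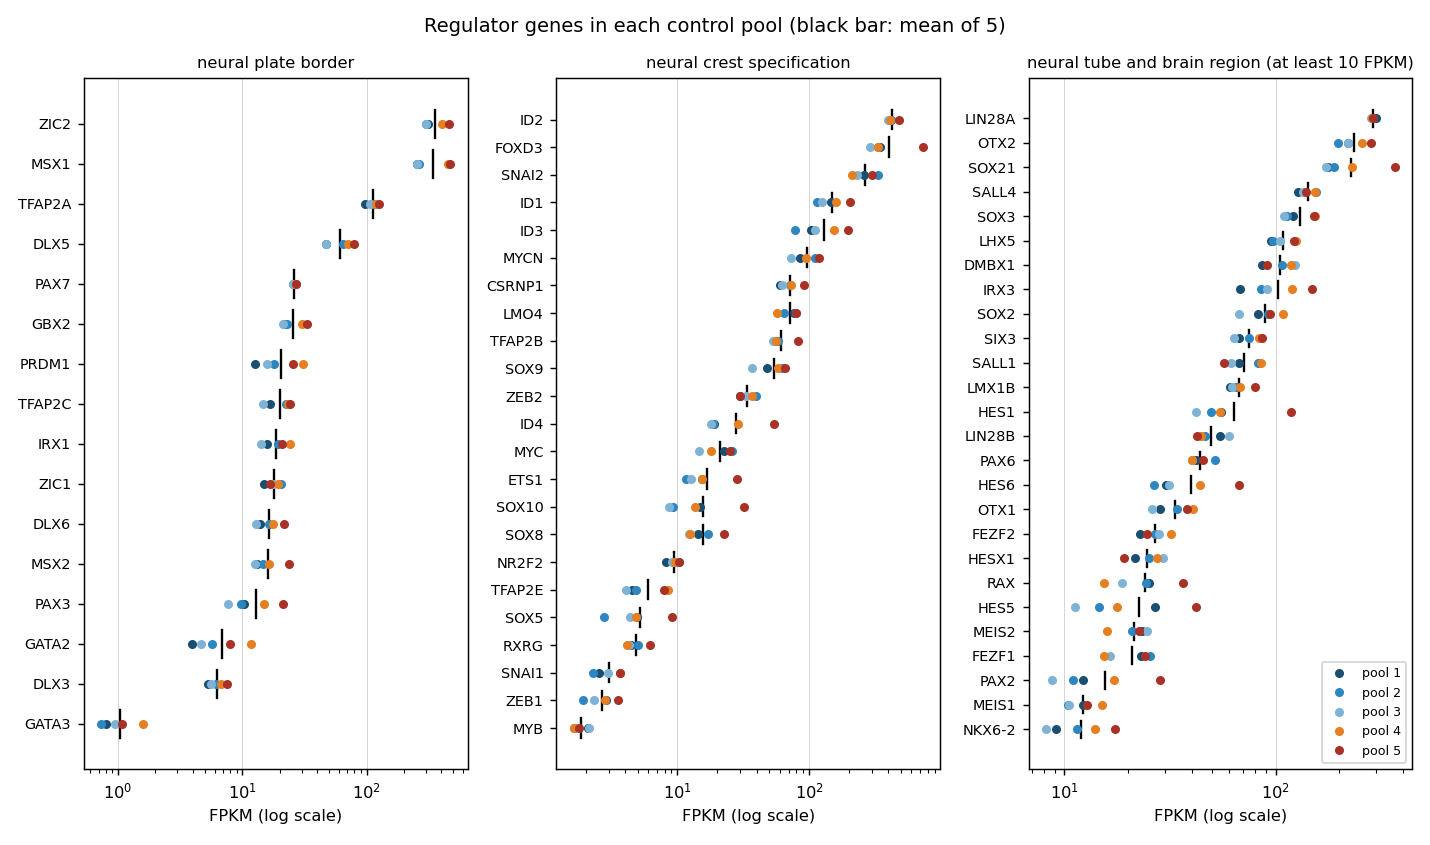
FPKM (horizontal axes, log scale) of most of the expressed border, crest specification and neural regulators in each of the 5 control pools (coloured points) with the mean of 5 (black bar), ordered by mean. FOXD3, SOX21, HES1 and SOX10 show pool 5 to the right of the other pools, while the PAX7 and LIN28A points lie on top of each other.

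Summed over the crest list, levels were 1754, 1802, 1592, 1773 and 2590 FPKM in pools 1 to 5. Of its 19 members with a mean of at least 5 FPKM, 15 were highest in pool 5, against 30.1% of all 8663 genes at that level. The border list summed to 936, 1020, 944, 1374 and 1466 FPKM, high in both pools 4 and 5, with 10 of 16 members highest in pool 5. The neuron list ran from 376 FPKM in pool 3 to 566 FPKM in pool 5. Most of that was TUBB3, at 283 FPKM in pool 3 and 467 FPKM in pool 5. Of 6 neuron genes from 5 FPKM, 2 were highest in pool 5. The notochord list ran from 29.1 FPKM in pool 3 to 46.0 FPKM in pool 5, and the head mesoderm list from 60.8 FPKM in pool 3 to 71.8 FPKM in pool 4. Their largest members were NOTO (mean 24.1 FPKM) and COL1A2 (mean 31.2 FPKM), so these sums rest largely on single genes. The part of other tissues in the higher crest values of pool 5 was not tested.

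The neural tube and brain region list was led by genes of the early neural plate, forebrain and midbrain. LIN28A, an RNA-binding protein of early proliferating cells, was at 299, 290, 282, 284 and 290 FPKM, a CV of 2.24%. OTX2, the forebrain and midbrain factor, was at 221, 197, 219, 256 and 281 FPKM, and the neural factor SOX21 at 178, 189, 174, 230 and 367 FPKM. LIN28A was level across pools, OTX2 was somewhat higher in pools 4 and 5, and SOX21 was high in pool 5. In pools 1 to 3, OTX2 averaged 213 FPKM and SOX21 180.3 FPKM. The neural plate factors SOX3 and SOX2 averaged 130 ± 21.7 and 88.8 ± 15.3 FPKM. SALL4 averaged 142 ± 11.9 FPKM and the forebrain factor LHX5 109 ± 13.8 FPKM. SIX3 and PAX6, factors of the forebrain and eye, were at 75.2 ± 9.87 and 43.8 ± 4.85 FPKM.

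Genes of the midbrain, hindbrain and trunk had a wide range of levels. LMX1B and IRX3, both used in the midbrain among other regions, averaged 67.2 ± 7.66 and 102 ± 31.7 FPKM, and PAX2, of the midbrain and hindbrain boundary, 15.5 ± 7.83 FPKM. The midbrain and hindbrain boundary genes EN1 and EN2 averaged 9.02 ± 1.87 and 1.84 ± 0.440 FPKM, and EGR2, a factor of hindbrain segments, 2.01 ± 1.38 FPKM. Of 13 HOX genes with a row, which pattern the hindbrain and trunk, 3 were expressed (23.1%, against 62.4% of all rows). HOXA2 was at 3.73, 1.26, 1.14, 6.22 and 8.44 FPKM and HOXB1 at 2.06, 0.599, 1.35, 2.46 and 2.55 FPKM. In both, pools 4 and 5 were the highest and the lowest pool was 2 or 3, and HOXA2 rested on 61.0 fragments per pool. With those pools left out, HOXA2 averaged 2.05 FPKM and HOXB1 1.34 FPKM. HOXD3, HOXD4 and HOXD13 were listed at 0 in every pool.

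WNT ligands turn on beta-catenin and set the dorsal edge of the folds. Of 22 WNT and R-spondin genes with a row, 12 were expressed (54.5%, against 62.4% of all rows) and WNT4 was far ahead. WNT4, listed as ENSGALG00000041708, was at 70.5, 68.2, 47.7, 65.8 and 138 FPKM, and WNT1, a signal of the dorsal midbrain, at 24.8, 25.4, 23.5, 31.7 and 32.1 FPKM. WNT6, a signal of surface ectoderm, was at 19.7, 19.6, 18.6, 21.4 and 23.7 FPKM. WNT4 was high in pool 5 alone and averaged 62.1 FPKM without pools 4 and 5, and it exceeded WNT1 in every pool as WNT1 exceeded WNT6. WNT2 (12.7 ± 4.16 FPKM) and the R-spondins RSPO1 (9.79 ± 2.03 FPKM) and RSPO3 (6.20 ± 1.20 FPKM), which amplify WNT signals, followed. WNT3A, another dorsal ligand, averaged 0.770 ± 0.301 FPKM.

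Of the WNT receptors, 16 of 17 were expressed (94.1%, against 62.4% of all rows). FZD7 was at 234, 272, 253, 311 and 293 FPKM and above PTK7 (164 ± 22.5 FPKM), a co-receptor of planar polarity, without overlap of their ranges. PTK7 in turn did not overlap with ROR1 (84.3 ± 5.69 FPKM), a receptor for non-canonical WNT ligands. The co-receptors LRP5 and LRP6 have roles in every canonical WNT signal, and LRP6 averaged 5.04 ± 0.153 FPKM.

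Of 16 secreted or membrane WNT antagonists, 11 were expressed (68.75%, against 62.4% of all rows). Their median was 9.70 FPKM, against 2.05 FPKM for the list of WNT ligands and R-spondins. Antagonists down to SFRP1 exceeded WNT4, the highest ligand, in mean level, while DKK3 (28.1 ± 2.73 FPKM) and those below it did not. After SHISA2, DRAXIN, a chick inhibitor of WNT signals in cranial crest, averaged 348 ± 37.6 FPKM, SFRP2 242 ± 24.1 FPKM, FRZB 231 ± 34.1 FPKM and SFRP1 101 ± 22.2 FPKM. SFRP2 exceeded FRZB in 2 pools only, so that these did not differ beyond their spread. SFRP1 was at 112, 122, 118, 74.2 and 80.3 FPKM and was lowest in pools 4 and 5, with 117 FPKM without them. All 11 targets and effectors were expressed, against 62.4% of all rows, with CTNNB1, which encodes beta-catenin, at 435 ± 18.1 FPKM. Among its targets, SP5 was at 68.8, 105, 75.2, 146 and 138 FPKM and the feedback inhibitor AXIN2 at 16.7, 16.4, 15.6, 17.8 and 20.8 FPKM. Both had their highest 2 values in pools 4 and 5, and without those pools they averaged 82.8 and 16.2 FPKM.

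**Figure D3:**
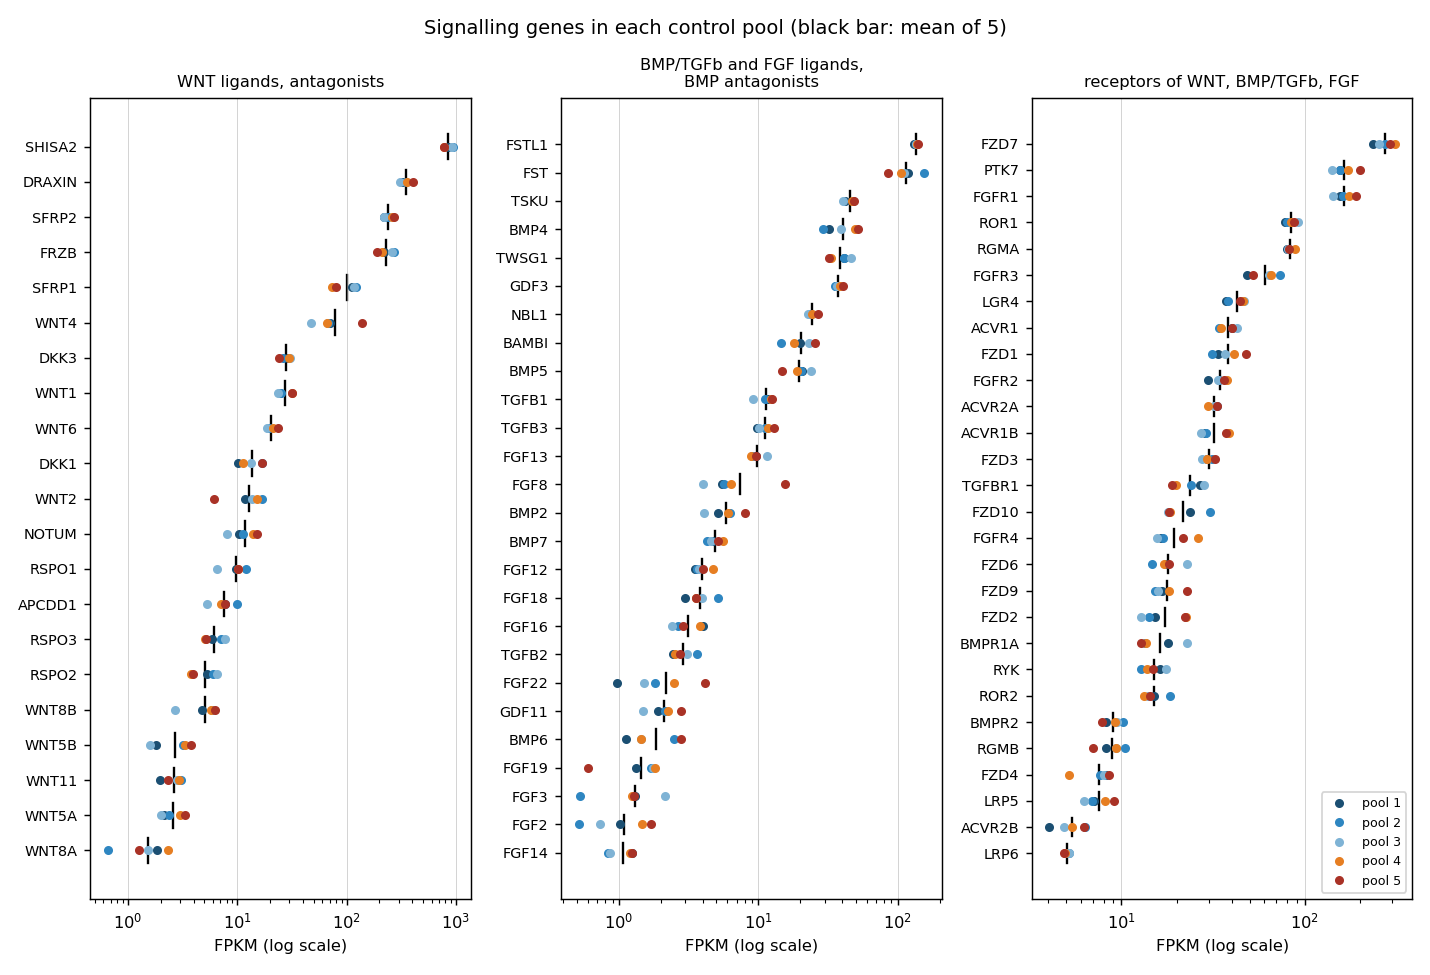
FPKM (horizontal axes, log scale) of expressed signalling genes in each of the 5 control pools (coloured points) with the mean of 5 (black bar). The first panel holds WNT ligands and R-spondins with the WNT antagonists from 5 FPKM. The next holds BMP, TGFb and FGF ligands with BMP antagonists from 15 FPKM, and the last receptors from 5 FPKM. SHISA2, DRAXIN, SFRP2 and FRZB lie to the right of every WNT ligand.

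BMP ligands pattern the border from the ectoderm. Of 16 BMP and TGFb ligands, 10 were expressed (62.5%), the same share as among all rows (62.4%). BMP4 was at 31.9, 29.0, 39.4, 49.5 and 51.8 FPKM and GDF3, a relative of the early embryonic signal Vg1, at 36.3, 35.6, 36.4, 38.7 and 40.4 FPKM. BMP4 was highest in pools 4 and 5 and averaged 33.4 FPKM without them, and its range enclosed that of GDF3. MSX1 was highest in these pools too, but so were 27.1% of all genes from 5 FPKM. A link between BMP4 and MSX1 was not tested. BMP5 averaged 19.6 ± 3.36 FPKM, BMP2 5.90 ± 1.47 FPKM and BMP7 4.86 ± 0.500 FPKM.

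Of the receptors 12 of 15 were expressed. The type I receptor ACVR1 averaged 38.2 ± 3.68 FPKM, BMPR1A 16.1 ± 4.23 FPKM and BMPR1B 1.21 ± 0.474 FPKM, in that order in every pool. RGMA, a BMP co-receptor and guidance molecule, led the list at 82.6 ± 3.52 FPKM. Among the antagonists, 11 of 15 were expressed (73.3%, against 62.4% of all rows), with FSTL1 at 132, 136, 136, 137 and 139 FPKM. FST, which encodes the activin and BMP binder follistatin, was at 119, 155, 110, 106 and 84.5 FPKM. FSTL1 hardly varied, with a CV of 2.03%, and FST was highest in pool 2 and lowest in pool 5. FST is a Z chromosome gene in the RefSeq table, and Z genes as a class were highest in pool 2 and lower in pools 4 and 5. The part of this in the FST values was not tested. NOG and CHRD, the classic BMP antagonists of the notochord and organizer, were low at 3.81 ± 0.988 and 1.34 ± 0.554 FPKM.

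FGF ligands were low and their receptors high. Of 17 ligands, 10 were expressed (58.8%, against 62.4% of all rows). Only FGF13 (9.72 ± 1.07 FPKM), an intracellular member of the family, and FGF8 passed a mean of 5 FPKM. FGF8, the signal of the midbrain and hindbrain boundary and of the front edge of the head, was at 5.46, 5.67, 4.00, 6.38 and 15.5 FPKM, high in pool 5 alone. FGFR1 was at 154, 161, 141, 175 and 189 FPKM, ahead of FGFR3 at 60.4 ± 10.1 FPKM, FGFR2 at 34.3 ± 2.97 FPKM and FGFR4 at 19.3 ± 4.43 FPKM. The ranges of these 4 receptors did not overlap. Of the FGF targets, ETV5 averaged 42.7 ± 7.62 FPKM and the feedback phosphatase DUSP6 was at 20.002, 19.8, 17.3, 19.1 and 26.9 FPKM. DUSP6 was also highest in pool 5, as were 30.1% of all genes from 5 FPKM. A link between FGF8 and DUSP6 was not tested. FGF8 averaged 5.04 FPKM and DUSP6 19.1 FPKM without pools 4 and 5.

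Of 20 Notch genes, which control the pace of neurogenesis, 17 were expressed (85%, against 62.4% of all rows). LFNG, a glycosyltransferase that tunes Notch receptors, was at 72.6, 75.7, 74.8, 104 and 141 FPKM, and the target HES1 at 55.4, 49.2, 41.8, 54.3 and 119 FPKM. NRARP, a feedback inhibitor, averaged 93.7 ± 23.6 FPKM, the receptor NOTCH1 35.6 ± 8.98 FPKM, the ligand DLL1 15.5 ± 4.71 FPKM and the target HES5 22.5 ± 12.3 FPKM. Of the 14 members with a mean of at least 5 FPKM, 10 were highest in pool 5, against 30.1% of all genes of that level. Their median CV was 31.0%, against 12.7% over all genes of that level. Without pools 4 and 5 that CV was 8.64%, against 8.29% over all genes, so the wider spread of the Notch genes rested on those pools. LFNG then had a CV of 2.13% and NOTCH1 of 2.37%. The Notch list summed to 461, 454, 420, 561 and 790 FPKM in pools 1 to 5.

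Hedgehog receptors were present with almost no ligand. Of 15 hedgehog genes 12 were expressed (80%, against 62.4% of all rows). They were led by the transducer SMO at 62.9 ± 7.90 FPKM and the co-receptor CDON at 46.7 ± 4.47 FPKM. SHH itself was above 0 in 2 pools, at no more than 0.111 FPKM. PTCH1, a receptor that is also a target, averaged 3.27 ± 0.616 FPKM.

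Retinoic acid genes were dominated by breakdown and binding. Of 15 members 12 were expressed (80%, against 62.4% of all rows). CRABP2, which carries retinoic acid inside the cell, averaged 490 ± 78.0 FPKM, and CYP26C1, an enzyme that degrades it, 292 ± 35.3 FPKM. CYP26A1, of the same enzyme family, was at 105, 134, 98.4, 256 and 130 FPKM, high in pool 4 alone, and without pools 4 and 5 it averaged 113 FPKM. ALDH1A2, the main enzyme of synthesis in embryos, averaged 0.412 ± 0.0492 FPKM.

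Of guidance and growth factor ligands 25 of 38 were expressed (65.8%), near the 62.4% of all rows, and of their receptors 38 of 47 (80.9%). Below MDK came EFNB1 (89.2 ± 21.8 FPKM) and EFNB2 (57.8 ± 12.3 FPKM), membrane ligands that sort cells at boundaries. EFNB1 was at 77.2, 70.7, 74.0, 104 and 120 FPKM and EFNB2 at 55.2, 78.6, 57.8, 49.3 and 48.1 FPKM. EFNB1 was highest and EFNB2 lowest in pools 4 and 5, so the order was clear there but turned round in pool 2. In pools 1 to 3 they averaged 73.9 and 63.9 FPKM. The secreted semaphorins SEMA3B and SEMA3F, which repel crest cells and axons, averaged 43.9 ± 5.84 and 41.1 ± 7.38 FPKM. NRP2, a semaphorin receptor, was at 61.0, 69.2, 64.6, 60.9 and 92.6 FPKM, high in pool 5. The ephrin receptors EPHB3 and EPHA4 averaged 116 ± 24.5 and 78.5 ± 4.87 FPKM. CXCR4, a chemokine receptor of migrating crest, averaged 26.9 ± 2.08 FPKM and PDGFRA 3.08 ± 0.301 FPKM.

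Of 25 cadherin and adhesion genes 17 were expressed (68%, against 62.4% of all rows). Their median CV was 12.0% for those from 5 FPKM, close to the 12.7% over all genes of that level. ST8SIA2, which adds polysialic acid to the neural adhesion molecule NCAM1, averaged 230 ± 15.3 FPKM and NCAM1 36.8 ± 3.12 FPKM. N-cadherin, encoded by CDH2, was at 53.4, 53.9, 54.0, 42.2 and 53.8 FPKM, so that pool 4 stood below the other 4. E-cadherin, encoded by CDH1, averaged 22.6 ± 2.78 FPKM, below CDH2 in every pool. CDH6, of premigratory crest, averaged 20.7 ± 3.16 FPKM and CDH7, of migrating crest, 5.88 ± 0.614 FPKM. Of 32 matrix genes 29 were expressed (90.6%, against 62.4% of all rows), with a median CV of 14.2%. SPARC, a matrix glycoprotein, was at 201, 199, 193, 194 and 203 FPKM, a CV of 2.15%. The basement membrane genes COL18A1 and LAMB1 averaged 165 ± 10.9 and 133 ± 18.3 FPKM, and fibronectin, encoded by FN1, 102 ± 6.48 FPKM.

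All 18 genes with a row in a list made up mostly of histone methylation enzymes were expressed, against 62.4% of all rows. The list includes EED and DOT1L, so it is not limited to SET domain enzymes. They ran from 7.44 FPKM (SMYD2) to 93.1 FPKM (SETD2). SETD2, which trimethylates histone H3 at lysine 36, exceeded every other member in each pool. NSD3, the gene targeted in the other libraries, was at 20.8, 21.5, 21.3, 24.7 and 25.9 FPKM here, a mean of 22.9 ± 2.29 FPKM, highest in pools 4 and 5, and averaged 21.2 FPKM without them. Its relatives NSD2 and ASH1L averaged 23.7 ± 3.91 and 10.7 ± 0.852 FPKM, and NSD2 and NSD3 did not differ beyond their spread. Of 29 cell cycle genes 28 were expressed (96.6%, against 62.4% of all rows). PCNA, the replication clamp, was at 386, 358, 403, 313 and 287 FPKM and RRM2, which makes deoxynucleotides, at 257, 234, 243, 210 and 196 FPKM. Both were lowest in pools 4 and 5, as was the mitotic cyclin CCNB1 (229 ± 14.7 FPKM), and without those pools they averaged 382 and 245 FPKM. The mitotic kinase PLK1 (149 ± 10.6 FPKM) was highest in pool 5.

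The spread between pools was larger than counting alone gives and fell with level. Among genes of 1 to 2 FPKM the median CV was 27.4%, against a counting error of 17.4%. It was 16.3% against 6.95% at 5 to 10 FPKM, 11.3% against 3.54% at 20 to 50 FPKM, and 9.68% against 2.34% at 100 to 1000 FPKM. With all 5 pools the spread above 50 FPKM stayed near 10%, with 10.3% at 50 to 100 FPKM and 10.8% above 1000 FPKM. Without pools 4 and 5 it went on falling with level, with medians of 7.31% at 20 to 50 FPKM, 6.28% at 50 to 100 FPKM, 4.98% at 100 to 1000 FPKM and 3.51% above 1000 FPKM. Over all 8663 genes from 5 FPKM the median CV was 12.7%, and 95.0% of those with recovered fragments varied more than counting error. Without pools 4 and 5 that median was 8.29%.

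**Figure D4:**
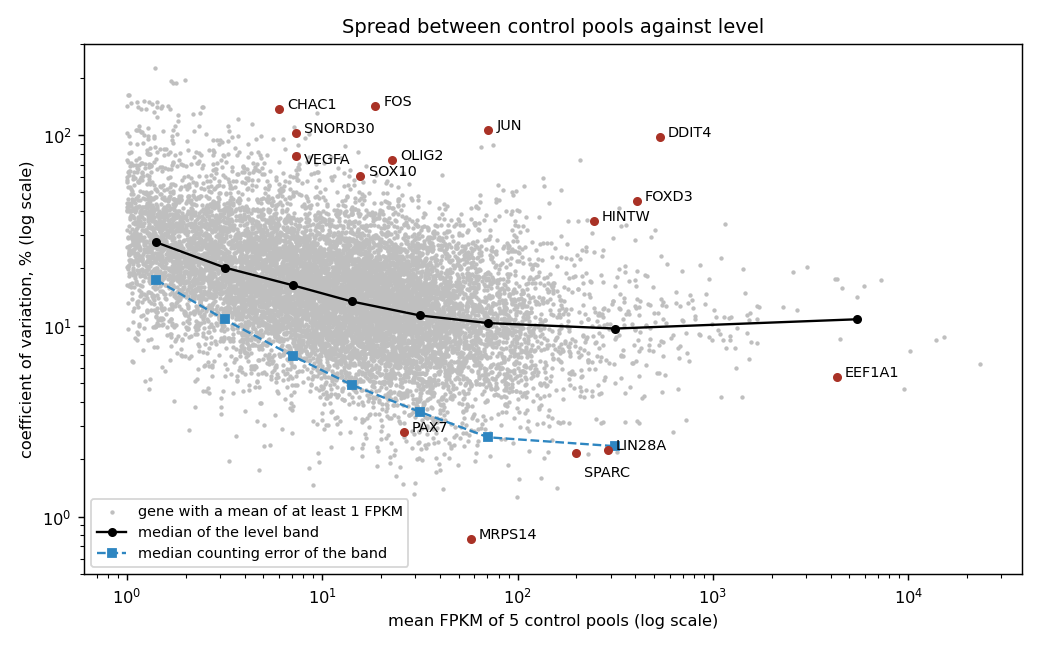
CV between the 5 control pools (vertical axis, %, log scale) against mean FPKM (horizontal axis, log scale) for expressed genes (grey), with the median of each level band (black) and the median counting error (blue, drawn for bands with at least 100 genes that have recovered fragments). With all 5 pools the median is 9.68% at 100 to 1000 FPKM, FOS and CHAC1 lie far above it, and MRPS14 lies lowest among the marked genes.

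Among genes with a symbol and a mean of at least 5 FPKM, the lowest CV was that of MRPS14, which encodes a mitochondrial ribosomal protein. It was at 57.8, 57.7, 58.1, 57.2 and 57.1 FPKM, a CV of 0.764% that is below its counting error of 4.53%. MRPL28, of the same ribosome, averaged 99.3 ± 1.26 FPKM, the chromatin loop factor CTCF 41.5 ± 0.575 FPKM and the cytoskeletal kinase ROCK2 8.93 ± 0.131 FPKM. With the others of the lowest 10, OTUD4, BLCAP, PHRF1, LARS1, FAM171B and FAM60A, they had CVs of at most 1.59%. The CVs of MRPL28, CTCF and FAM171B were 1.27, 1.39 and 1.57%, also below their counting errors of 2.77, 2.17 and 1.91%. With n = 5, the lowest CVs picked from many genes do not establish that a gene is steady. Common reference genes were not among the lowest 10. All 17 of that list were expressed, against 62.4% of all rows, with a median CV of 11.5%, and of 3.66% without pools 4 and 5. GAPDH was at 4280, 4093, 4026, 4631 and 5782 FPKM and LDHA, a glycolytic enzyme, at 120, 90.4, 131, 183 and 307 FPKM. Both were highest in pool 5, and without pools 4 and 5 their CVs were 3.19% and 18.6%, against 15.8% and 51.3% with them.

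At the other end, 231 of the 8663 genes (2.67%) had a CV of at least 40%. The 20 named genes with the highest CVs follow, starting with FOS but otherwise not in order of CV. CHAC1 (137%) and BHLHE40 (130%) came next after FOS. FOS, an AP-1 factor induced within minutes of a stimulus and listed as ENSGALG00000028037, was at 2.94, 2.21, 2.30, 22.2 and 63.5 FPKM, a CV of 142%. Its partner JUN was at 18.7, 16.9, 13.3, 136 and 170 FPKM. DDIT4, an mTOR inhibitor induced by stress, was at 195, 144, 151, 952 and 1238 FPKM. In each of these genes, pools 4 and 5 lay above all of pools 1 to 3.

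Other genes showed the same order. CHAC1, a glutathione-degrading enzyme of the unfolded protein response, was at 0.485, 0.269, 0.457, 10.3 and 18.5 FPKM. BHLHE40, a repressor induced by low oxygen, was at 1.06, 0.694, 0.322, 26.0 and 18.9 FPKM, and VEGFA, the vascular growth factor, at 3.72, 2.94, 3.44, 10.8 and 15.8 FPKM. Again pools 4 and 5 were the high ones, and without them these genes averaged 0.404, 0.691 and 3.36 FPKM. The same held for STC1, ENO2, HSPB9, SLC38A3, TSC22D4, PMAIP1, STMN4 and ASTL. Among developmental regulators it held for OLIG2, a factor of ventral neural progenitors, at 9.92, 15.2, 7.93, 35.7 and 45.7 FPKM. Without pools 4 and 5, OLIG2 averaged 11.01 FPKM and DDIT4 163 FPKM, and the CVs of FOS, JUN, DDIT4 and VEGFA were 16.1, 16.9, 16.8 and 11.7%. SNORD30, SNORD54, gga-mir-7441, gga-mir-1720 and gga-mir-1705 also stood among the 20 most variable named genes but rested on 4.2 to 8.8 fragments per pool, and such short RNAs are poorly captured in poly(A) libraries.

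Of the 231 variable genes, 103 had pools 4 and 5 as their 2 highest (44.6%) and 70 had them as their 2 lowest. Over all 8663 genes these were 27.1% and 31.4%. Without pools 4 and 5, 86 genes passed 40%. Counting error subtracted, 182 of the 231 did, and 73 of the 231 rested on under 30 fragments per pool. The cause of the difference between pools was not tested, and the labels give no day or operator for a pool.

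Pool 5 also stood apart by itself. By a gap rule, under which 1 pool's distance to its nearest neighbour exceeds 0.71 of the whole range, 343 of 8663 genes had a pool apart (3.96%). Of these, 133 were high in pool 5, and no other pool was high alone in more than 35. The crest and border genes that rested on pool 5 were FOXD3, SOX10, ETS1 and TFAP2B. In pools 1 to 3, ETS1 averaged 13.2 FPKM and TFAP2B 55.9 FPKM. FOXD3 there averaged 323 FPKM with a CV of 8.89%, against 44.9% over all 5 pools, and SOX10 averaged 10.9 FPKM with a CV of 31.4%, against 61.3%.

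**Figure D5:**
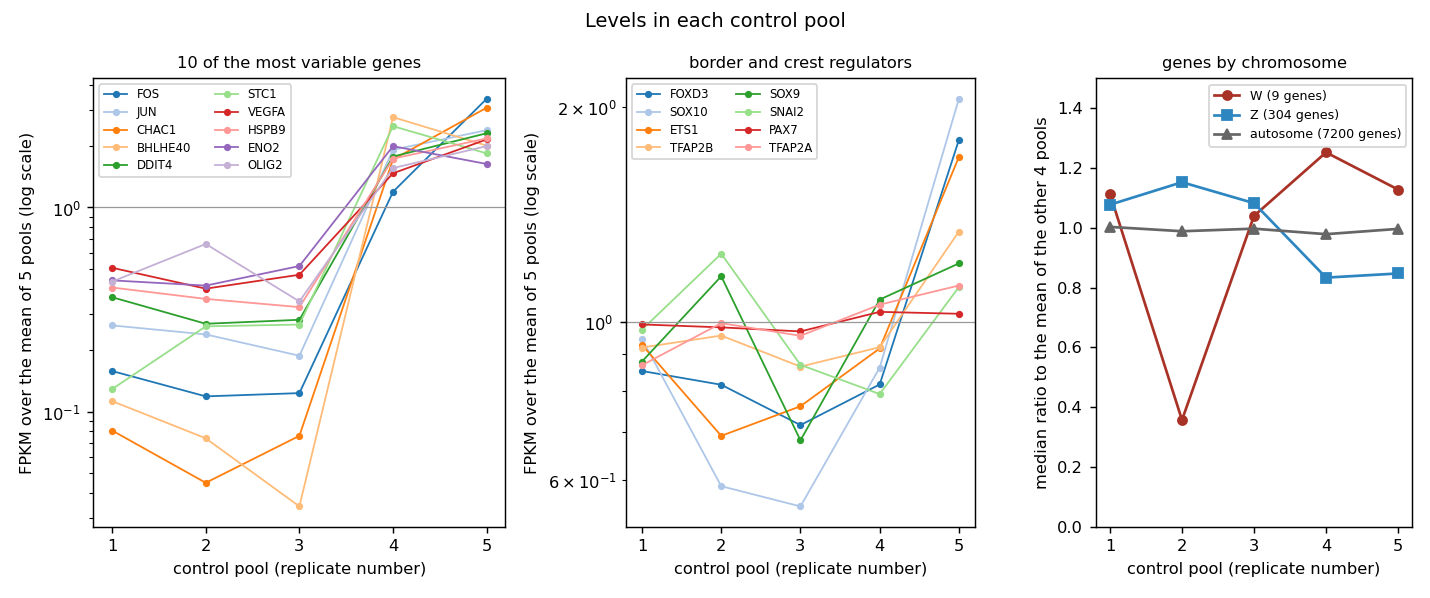
Levels by control pool (horizontal axes, replicate number), with lines that only join the points of a gene or chromosome. The left and middle panels show FPKM over the gene's mean of 5 pools (log scale) for 10 of the most variable genes, which are high in pools 4 and 5, and for 8 border and crest regulators, of which FOXD3, SOX10 and ETS1 are high in pool 5. The right panel shows the median ratio of W, Z and autosomal genes in a pool to their mean in the other 4 pools, with W genes at 0.357 in pool 2.

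Pool 2 differed in genes of the W chromosome, which only female birds carry. HINTW, listed as ENSGALG00000035998, was at 290, 90.2, 284, 293 and 270 FPKM, and HNRNPKL, another W gene in the RefSeq table, at 33.1, 9.80, 33.8, 26.7 and 25.3 FPKM. ATP5A1W, which the file names for the W, was at 19.3, 6.69, 19.4, 18.4 and 17.2 FPKM. Pool 2 was lowest in each, by a ratio of 0.317, 0.330 and 0.360 to the mean of the other 4 pools. Of 9 expressed genes that RefSeq places on the W, 7 were lowest in pool 2, and NEDD4L and LOC100857299 were not. The median ratio was 0.357 in pool 2 and between 1.04 and 1.25 in the other pools.

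Genes of the Z chromosome, of which male birds carry a pair and females a single copy, differed by pool as well. Over 304 genes the median ratio of a pool to the mean of the other 4 was 1.08, 1.15, 1.08, 0.834 and 0.847 in pools 1 to 5. Over 7200 autosomal genes it stayed between 0.979 and 1.00. Z genes were thus highest in pool 2 and lower in pools 4 and 5. The labels do not give the sex of the embryos, and its part in the differences between pools was not tested. W genes have close copies on the Z, so that reads could be divided between them.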

How the data were processed

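Poly(A) RNA of 10 libraries was sequenced from TruSeq stranded libraries, per the labels' protocols, and the 5 control morpholino libraries, separate pools of embryos by their labels, are described. The authors deposited FPKM for 19168 rows with 3 decimals, and the mean counts of a second deposited table, not whole numbers and so treated as a signal, served only as a check. The build GRCg6a and the tools STAR 2.5.3a, Trimmomatic 0.32 and DESeq2 1.28.1 stand in the submitters' processing notes. Which tool counted, whether by strand, and with which annotation is not given in the sources used here, so overlapping genes are uncertain. Where a symbol had several rows, a row with the symbol from Ensembl was taken before one with it only from UniProt, and then the highest. RefSeq symbols (GRCg7b) gave chromosomes only.

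Python 3.11.15, pandas 2.3.3, numpy 2.4.6 and matplotlib 3.10.9 computed the mean, SD, rank and CV of each row. The steps of low FPKM in all 10 libraries gave whole fragments (up to 4000, tolerance 0.15) for 15654 of 16331 rows, 95.9%, or 5742800 to 5967866 fragments per pool. For 634 genes, 99.5% lay within 1% of a constant ratio to the authors' mean counts. On simulated data 99.8% of rows were given fragments. Counting error is 100% over the square root of the fragments and leaves out other technical error. The log2 spread is the SD of log2(FPKM + 0.5). No test between groups was made.

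Members and 32 gene lists were chosen with earlier results of these data known. Named genes are NSD3, the 20 highest, the 20 most and 10 least variable (from 5 FPKM), up to 6 highest members per list with its most variable and its zeros, all border and crest members, and up to 6 W genes. For each of pools 2, 4 and 5, but not for pools 1 and 3, up to 6 genes that passed the gap rule with the widest gap were added. SOX2, SIX3, PAX6, LMX1B, IRX3, PAX2, EN1, EN2, EGR2, TP63, GRHL3, TBX2, TBX3, SHH, NKX2-5, CDH5, ELAVL4, NEUROD1, WNT3A, LRP6, BMP7, BMPR1B, FGFR4, DLL1, HES5, PTCH1, ALDH1A2, CDH1, CDH6, CDH7, NSD2, ASH1L, SPIN1W, UBAP2 and UBE2R2 were named beside them, after their values were seen. A few of the genes so chosen are left out of this text.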

Additional observations from a re-analysis of the deposited data

Results flagged for a closer look

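Among 279 named genes, 32 had 1 pool whose gap to its nearest neighbour exceeded 0.71 of the range of the 5 pools (11.5%). Over all genes from 5 FPKM the share was 3.96%, and about 1 in 20 groups would be set apart so by chance. The 11.5% cannot be weighed against either of these, because it was partly fixed by the naming. Some genes were named because they passed this same rule with the widest gap, and others because they varied most. Values are FPKM of the pool that stood apart, with the range of the other 4 pools.

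Pool 5 was high in 17 genes. Regulators among them were FOXD3 at 731 (291 to 347), SOX21 at 367 (174 to 230), the Notch target HES1 at 119 (41.8 to 55.4), SOX13 at 105 (42.9 to 60.9) and TFAP2B at 81.9 (53.0 to 58.5). SOX10 at 32.2 (8.64 to 14.8), ETS1 at 28.4 (11.5 to 15.5) and the LIM homeobox factor LHX9 at 3.30 (0.551 to 0.974) were further ones. Signalling genes were WNT4 at 138 (47.7 to 70.5), NRP2 at 92.6 (60.9 to 69.2), DUSP6 at 26.9 (17.3 to 20.002), the hedgehog co-receptor GAS1 at 25.9 (17.5 to 19.6) and FGF8 at 15.5 (4.00 to 6.38). The others were ACTB at 5146 (4246 to 4332), EEF1A1 at 4709 (4144 to 4240), RPSAP58 at 1999 (1565 to 1684) and FAM43A at 54.4 (15.3 to 24.995).

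Pool 4 was high in 7 genes. They were CYP26A1 at 256 (98.4 to 134), the small nucleolar RNA SNORD89 at 32.5 (16.0 to 20.3), gga-mir-1748 at 17.3 (8.48 to 10.5), ASAP3 at 11.2 (5.98 to 7.12), LRRC4C at 9.26 (5.30 to 6.14), PRLHR2 at 7.59 (4.28 to 5.08) and the lymphatic receptor FLT4 at 5.75 (2.45 to 3.29). It was low in CDH2 at 42.2 (53.4 to 54.0).

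Pool 2 was high in ATP6 at 11458 (9632 to 10087), SNORD30 at 20.5 (1.25 to 5.23), gga-mir-6677 at 18.4 (6.04 to 9.45) and C5orf51 at 11.5 (6.67 to 7.48). It was low in HINTW at 90.2 (270 to 293), ATP5A1W at 6.69 (17.2 to 19.4) and TERAL2 at 6.65 (17.5 to 19.1). SNORD30, gga-mir-1748 and gga-mir-6677 rested on 5.8, 10.4 and 12.8 fragments per pool. No named gene had pool 1 or pool 3 apart by this rule, but genes were named for a wide gap only in pools 2, 4 and 5. Over all genes from 5 FPKM, pool 1 was alone high in 8 and alone low in 4, and pool 3 in 35 and 31.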

How the results depend on the processing

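No paired analysis was possible because a single group was described and no result comes from a test. Without control replicates 4 and 5, chosen after seeing the data, the median CV was 8.29% (12.7% with all pools), the median log2 spread 0.12 (0.18), the count of genes with a CV of at least 40% 86 (231) and the median CV of named genes 9.64% (19.6%). The share of the 20 highest rows was 10.1% without mitochondrial genes, against 25.2%. A minimum of 1 FPKM gave a median CV of 14.96% and 757 variable genes, a minimum of 10 FPKM 124 variable genes, and no filter a median CV of 22.6%. With 1 pool left out in turn, expressed rows lay between 11935 and 11983, variable genes between 184 and 325, the median CV between 11.2 and 13.5% and that of named genes between 15.8 (without pool 5) and 20.4%. Means of 11 named genes moved by over 1.5 times when 1 pool was left out. Without pool 5 these were JUN (46.2 FPKM, against 70.9), FOS (7.42, against 18.6), PMAIP1 (4.15), CHAC1 (2.88), HEYL (1.09) and LHX9 (0.812). Without pool 4 they were ASTL (41.1), BHLHE40 (5.23), STC1 (4.47) and gga-mir-1720 (4.30), and without pool 2 SNORD30 (4.09). Means of all 309 named genes moved by less than 1 SD under each rescaling. Leaving out 1 of 5 pools can never move a mean by 1 SD, so no such check was possible there. Rows above 50 FPKM had recovered fragments in 64.7% of cases, so counting error is known for fewer high genes.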

Other observations

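Other genes followed the low W values of pool 2. SPIN1W, named for the W in the file, was at 4.17, 1.02, 4.48, 2.79 and 3.16 FPKM in pools 1 to 5, a ratio of 0.281 in pool 2 to the mean of the other 4. UBAP2, which RefSeq places on the Z, was at 3.51, 1.01, 3.33, 4.32 and 4.05 FPKM, a ratio of 0.265. UBE2R2, placed on the Z as well, had 2 rows. The lower of them was at 6.17, 2.41, 6.22, 6.35 and 5.02 FPKM and the higher at 59.1, 62.2, 56.1, 48.0 and 47.4 FPKM. The lower row thus had pool 2 lowest and the higher row pool 2 highest, and whether the lower row is a W copy was not tested.

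Pools differed in which of them held the extreme value. Pool 5 held the highest value in 30.1% of genes from 5 FPKM and pool 3 in 28.8%, against 10.9, 16.4 and 13.7% for pools 1, 2 and 4. Pools 1 and 3 were the 2 highest in 23.6% of genes and in 54 of the 231 variable genes. All other pairs except pools 4 and 5 were the 2 highest in at most 12.0% of genes.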
